A study of Mus musculus with 13 samples.

Results

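Lrrn4cl, Dact2, Ackr4, Wnt10b and Lurap1l are 5 genes out of 56953 in the count table, grouped as stromal genes lower with atorvastatin, that were selected on their measured values: in mouse aorta they sat high with auranofin and low with atorvastatin. The study asked whether auranofin, a gold compound that inhibits thioredoxin reductase, affects the progression of atherosclerosis, and it set the drug beside atorvastatin, a statin that inhibits cholesterol synthesis. All 13 libraries came from whole aortas of ApoE-/- mice, which lack apolipoprotein E and develop atherosclerosis, and feeding of a Western diet (WD) began in all groups at 6 weeks of age and lasted 16 weeks. In the combination group (2 libraries) the diet carried auranofin at 3 mg/kg/day and atorvastatin at 10 mg/kg/day. The auranofin group (3 libraries) and the atorvastatin group (3 libraries) received 1 drug each at the same dose, and the WD group (5 libraries) received the diet with no drug. No aorta without the Western diet or with a working Apoe gene was analysed here, and the labels do not say which mouse, or how many, stood behind a library, so p-values measure only the spread between these samples.

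The 5 genes belong to several signalling systems. Wnt10b encodes a secreted Wnt ligand, one of the proteins that act through Frizzled receptors and LRP co-receptors to stabilise beta-catenin, and in mice it is known to hold back the formation of fat cells. Dact2 encodes a Dapper protein, an intracellular partner of Dishevelled, which relays Wnt signals, and in zebrafish it dampens Nodal signalling, a branch of the TGF-beta family. Ackr4 encodes an atypical chemokine receptor that binds the chemokines CCL19, CCL21 and CCL25 and removes them without signalling through G proteins, which keeps chemokine gradients in shape. Lurap1l is the paralog of Lurap1, an adaptor that links the kinase MRCK to the myosin MYO18A in moving cells. Lrrn4cl encodes a membrane protein named for its resemblance to LRRN4.

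Promoters are shown to set the members side by side in sequence, since the selection put them together by level alone. RefSeq promoter windows of 300 bases, most of them upstream of the annotated start on build GRCm38.p6, were matched for 4 of the 5 genes, Dact2, Ackr4, Wnt10b and Lurap1l. The 2 windows that held a match to one of the motifs searched are printed 5′ to 3′ on the strand of the gene, with the matches in capitals. They lie at chr17:14203782-14204081 (minus strand) for Dact2 and at chr9:104126594-104126893 (minus strand) for Ackr4.
Dact2: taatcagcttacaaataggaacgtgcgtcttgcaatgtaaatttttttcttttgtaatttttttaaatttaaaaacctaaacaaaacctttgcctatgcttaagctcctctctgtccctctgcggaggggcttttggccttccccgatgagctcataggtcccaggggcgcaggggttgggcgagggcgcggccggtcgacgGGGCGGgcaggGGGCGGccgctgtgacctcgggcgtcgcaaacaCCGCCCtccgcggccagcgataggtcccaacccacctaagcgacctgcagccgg
Ackr4: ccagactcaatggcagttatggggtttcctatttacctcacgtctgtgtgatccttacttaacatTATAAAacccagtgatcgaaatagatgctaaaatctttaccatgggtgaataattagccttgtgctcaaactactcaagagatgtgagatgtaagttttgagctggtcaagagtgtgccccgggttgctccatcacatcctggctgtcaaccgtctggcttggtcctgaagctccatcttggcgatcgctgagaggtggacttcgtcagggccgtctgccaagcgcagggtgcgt
In the Dact2 window the capitals mark GC boxes (GGGCGG), which began at positions -48 and -37 from the start site on the strand of the gene and at -4 on the opposite strand. In the Ackr4 window they mark the letters TATAAA at position -185, away from the usual place of a TATA box close to the start. Across 32851 promoters searched on both strands, 35.7% held a GC box and 13.6% held TATAAA. None of the 4 windows held the TCF/LEF core CTTTGA, through which beta-catenin reaches Wnt target genes and which was in 16% of all promoters. None held the AP-1 letters TGANTCA (7.81% of promoters) or the SREBP letters TCACNCCAC (1.24%), the site of the factors that statins activate by lowering sterols. The windows also differed in base composition. The GC content was 66.3% for Wnt10b, 56.7% for Dact2, 48.7% for Ackr4 and 47% for Lurap1l, against a median of 52.7% over all promoters. No motif was shared by the members, and the matches are letters in a window, not measured binding.

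Total counts per library lay between 19703683 and 26079566 (median 23550042), of which mitochondrial genes took 9.36% to 38.8%. Of all genes, 18055 passed the low-count filter and were tested, and all 5 members were among them. Levels are given as CPM, the counts of a gene relative to the size of its library, at library sizes scaled by TMM, a factor per library that lines up the bulk of the genes. These factors lay between 0.999 and 1.23 except in 3 libraries, at 0.629 in auranofin 2, 0.639 in WD 2 and 0.801 in WD 5. Auranofin 2 stood furthest apart: it also had the highest mitochondrial share, and the summed level of 4 B cell markers was 662 CPM there, against at most 62.4 CPM in any other library. For the members, the gene lists and the named list genes, differences between auranofin and atorvastatin are therefore also given without that library. The values of Acad11, those of the genes ranked beside the members, and the shares of genes without overlap between groups include it. In whole tissue, fewer cells of a type and less RNA per cell cannot be told apart.

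The members were not abundant genes. The average level of Lrrn4cl exceeded that of 58.6% of the genes tested, that of Lurap1l 43.7%, Ackr4 30.6%, Dact2 29.7% and Wnt10b 25.8%. Per kilobase of exon, in the lengths of GENCODE M21, the mean level with auranofin was 10.3 CPM for Lrrn4cl, 2.9 for Lurap1l, 1.38 for Dact2, 1.16 for Ackr4 and 0.845 for Wnt10b. In WD aortas it was 5.81 CPM per kilobase for Lrrn4cl, 2.87 for Lurap1l, 0.765 for Dact2, 0.553 for Wnt10b and 0.41 for Ackr4, so Ackr4 and Wnt10b changed places in the order. The raw counts behind these values ran from 25 to 67 for Wnt10b, 29 to 152 for Dact2, 31 to 184 for Ackr4, 109 to 228 for Lurap1l and 194 to 601 for Lrrn4cl. Their biological coefficient of variation within groups was 23.9% for Lurap1l, 29.2% for Lrrn4cl, 29.5% for Wnt10b, 29.8% for Dact2 and 39.7% for Ackr4. The median over all genes was 31.6%. A choice of genes by differences between groups favours a small spread within groups, so nothing is read from these values.

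**Figure D1:**
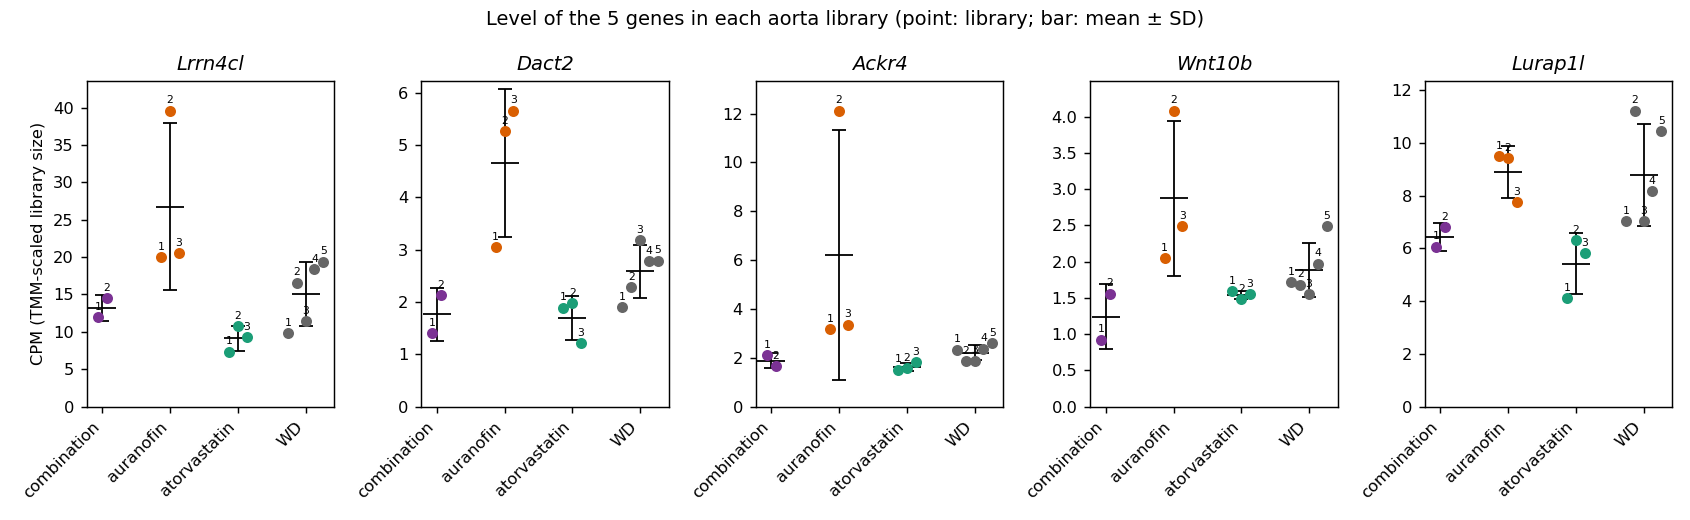
Level of each gene in CPM at TMM-scaled library size (vertical axis, from 0) in each library (points, numbered by replicate), by group, with the group mean and SD as bars. In each of the 5 panels the 3 auranofin libraries lie above the 3 atorvastatin libraries, and auranofin 2 is the highest library for Lrrn4cl, Ackr4 and Wnt10b.

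Wnt10b (ENSMUSG00000022996), the ligand, was the lowest of the 5 in counts. Its level was 0.92 and 1.56 CPM in the combination libraries, 2.04, 4.08 and 2.495 CPM with auranofin, 1.59, 1.48 and 1.55 CPM with atorvastatin, and 1.72, 1.68, 1.55, 1.97 and 2.48 CPM in WD. The atorvastatin libraries lay close to one another, in or just under the lower end of the WD range, while auranofin 1 lay inside the WD range and auranofin 2 and, barely, auranofin 3 above it. The group means were 1.24 ± 0.449 CPM in the combination (SD, n = 2), 2.87 ± 1.07 with auranofin (SD, n = 3), 1.54 ± 0.0547 with atorvastatin (SD, n = 3) and 1.88 ± 0.370 in WD (SD, n = 5). On the log2 scale, auranofin minus atorvastatin was 0.89 (SE 0.34), a 1.85-fold difference, and it was 0.56 without auranofin 2.

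Dact2 (ENSMUSG00000048826), the Dishevelled partner, differed in both directions from WD. Its level was 1.41 and 2.13 CPM in the combination, 3.05, 5.27 and 5.66 CPM with auranofin, 1.89, 1.97 and 1.22 CPM with atorvastatin, and 1.90, 2.28, 3.19, 2.78 and 2.79 CPM in WD. Auranofin 2 and 3 were above every other library, and auranofin 1 was just under the highest WD library. The means were 1.77 ± 0.509 CPM in the combination (SD, n = 2), 4.66 ± 1.41 with auranofin (SD, n = 3), 1.69 ± 0.415 with atorvastatin (SD, n = 3) and 2.59 ± 0.502 in WD (SD, n = 5). Auranofin minus atorvastatin was 1.45 (SE 0.34) on the log2 scale, 2.74-fold, and stayed at 1.36 without auranofin 2, since auranofin 3 held the highest value of this gene. In the other annotation at hand, GENCODE M21 on GRCm38, an exon of Dact2 overlaps Gm34510, which had 1 count in 1 library and none in the others.

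Ackr4 (ENSMUSG00000079355), the chemokine scavenger, had the largest fitted difference of the 5 and the most uneven one. Its level was 2.11 and 1.65 CPM in the combination, 3.17, 12.1 and 3.35 CPM with auranofin, 1.51, 1.56 and 1.81 CPM with atorvastatin, and 2.33, 1.86, 1.88, 2.37 and 2.59 CPM in WD. Every auranofin library was above every other library of the series and every atorvastatin library was below every WD library, but auranofin 2 was far above its own group. The means were 1.88 ± 0.321 CPM in the combination (SD, n = 2), 6.21 ± 5.12 with auranofin (SD, n = 3), 1.63 ± 0.158 with atorvastatin (SD, n = 3) and 2.21 ± 0.321 in WD (SD, n = 5). Auranofin minus atorvastatin was 1.92 (SE 0.46) on the log2 scale, 3.79-fold, and 1.00 without auranofin 2. The libraries were not stranded, and in GENCODE M21 Ackr4 shares exonic bases with Acad11, a mitochondrial dehydrogenase gene on the opposite strand, so reads from those bases cannot be assigned to one of them. Acad11 had 63.7 CPM in combination 2 and 61.3 CPM in auranofin 2, its 2 highest libraries, and 9.49 to 40.2 CPM in the others. Ackr4 was at 1.65 CPM in combination 2 and at 12.1 CPM in auranofin 2. On the log2 scale Acad11 was at 1.14 (SE 0.42) in auranofin minus WD and 0.77 (SE 0.48) in auranofin minus atorvastatin. Its combination minus WD value was 1.05 (SE 0.47). The part of Acad11 reads in the counts of Ackr4 was not tested.

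Lurap1l (ENSMUSG00000048706), the adaptor paralog, was the member whose distance lay on the atorvastatin side. Its level was 6.06 and 6.80 CPM in the combination, 9.51, 9.42 and 7.75 CPM with auranofin, 4.12, 6.30 and 5.84 CPM with atorvastatin, and 7.05, 11.2, 7.03, 8.18 and 10.5 CPM in WD. Both the atorvastatin and the combination libraries were below every WD library, and the auranofin libraries lay inside the WD range. The means were 6.43 ± 0.521 CPM in the combination (SD, n = 2), 8.89 ± 0.994 with auranofin (SD, n = 3), 5.42 ± 1.15 with atorvastatin (SD, n = 3) and 8.79 ± 1.95 in WD (SD, n = 5). Auranofin minus atorvastatin was 0.71 (SE 0.25) on the log2 scale, 1.64-fold, and 0.67 without auranofin 2.

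Lrrn4cl (ENSMUSG00000071656), the most abundant of the 5, spread widely in WD. Its level was 11.98 and 14.5 CPM in the combination, 20.02, 39.6 and 20.5 CPM with auranofin, 7.34, 10.7 and 9.32 CPM with atorvastatin, and 9.77, 16.6, 11.4, 18.3 and 19.4 CPM in WD. All 3 auranofin libraries exceeded every other library, by a small margin over WD 5 in the case of auranofin 1, and 2 of the 3 atorvastatin libraries were below every WD library. The means were 13.2 ± 1.75 CPM in the combination (SD, n = 2), 26.7 ± 11.2 with auranofin (SD, n = 3), 9.12 ± 1.70 with atorvastatin (SD, n = 3) and 15.1 ± 4.26 in WD (SD, n = 5). Auranofin minus atorvastatin was 1.55 (SE 0.33) on the log2 scale, 2.92-fold, and 1.15 without auranofin 2.

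These differences between the single drugs chose the members, so they are descriptions and carry no test. Of the 18055 genes, 2.07% were higher with auranofin than with atorvastatin at an unadjusted p under 0.05, 2.33% were lower, and 5.91% had every auranofin library above every atorvastatin library. All 5 members were in the first and the third of these classes and none in the second. By p-value in edgeR, Lrrn4cl, Dact2 and Ackr4 stood at ranks 2, 3 and 4, Lurap1l at 125 and Wnt10b at 255. Rank 1 was Creb3l1, a transcription factor of the endoplasmic reticulum, which differed the other way at -0.83 (SE 0.17). Just past Wnt10b stood Gm8437 at -1.54 (SE 0.59) and Ppp1r13l at -1.01 (SE 0.39). The scaling matters for these differences, because auranofin 2 had the lowest TMM factor. With library totals and no TMM factor the median gene itself was -0.27 for auranofin minus atorvastatin on the log2 scale. On that scale the members were at 1.43 for Ackr4, 1.17 for Lrrn4cl, 1.15 for Dact2, 0.53 for Wnt10b and 0.43 for Lurap1l. Every auranofin library was then above every atorvastatin library for 2.53% of genes and for 4 of the 5 members. The exception was Lurap1l, with 5.92 CPM in auranofin 2, against 7.28 CPM in atorvastatin 2.

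The single drugs were next set beside WD, which shares each drug group with the comparison that chose the members, so these values are also given without a test. Atorvastatin minus WD was negative for all 5 genes on the log2 scale, at -0.73 (SE 0.30) for Lrrn4cl, -0.69 (SE 0.23) for Lurap1l, -0.61 (SE 0.31) for Dact2, -0.44 (SE 0.41) for Ackr4 and -0.29 (SE 0.31) for Wnt10b. Marker lists of other cells went both ways in this comparison. All 8 macrophage markers (median -0.80) and all 8 heart and skeletal muscle markers (-3.61) were negative. So were 6 of 7 T cell markers (-0.64) and 10 of 14 adventitial fibroblast markers (-0.30). Also negative were 7 of 9 mesothelial markers (-0.41), 6 of 7 lymphatic endothelial markers (-0.32) and the 2 thymus markers tested (-3.36). On the positive side were all 6 cartilage markers (1.17), 6 of 8 brown adipocyte markers (0.48) and 6 of 9 blood endothelial markers (0.27). The same held for 5 of 6 Schwann cell markers (0.165) and 3 of 4 B cell markers (0.39). White adipocyte markers (3 of 7 positive, -0.01) and contractile smooth muscle markers (5 of 10 positive, -0.25) were split. Summed macrophage markers ran from 704 to 2161 CPM with atorvastatin and from 342 to 4993 CPM in WD, and those of heart and skeletal muscle from 10.8 to 22.8 and from 14.9 to 462 CPM, so the groups overlapped. None of these markers passed the test, and their part in the levels of the members was not tested. Every atorvastatin library was below every WD library for Ackr4 and Lurap1l, 2 of the 5, and for 2.87% of all genes. With library totals and no TMM factor this held for 0 of the 5 members and 3.26% of genes. Auranofin minus WD was 1.48 (SE 0.39) for Ackr4, 0.85 (SE 0.29) for Dact2, 0.82 (SE 0.28) for Lrrn4cl, 0.60 (SE 0.30) for Wnt10b and 0.02 (SE 0.22) for Lurap1l. Without auranofin 2 it was 0.56 for Ackr4, 0.75 for Dact2, 0.43 for Lrrn4cl, 0.27 for Wnt10b and -0.02 for Lurap1l. Every auranofin library was above every WD library for Lrrn4cl and Ackr4 and for 1.45% of all genes, and above every library of the 3 other groups for the same 2 members and for 0.199% of genes. With no TMM factor both of these held for Ackr4 alone among the members, and for 0.526% and 0.0277% of genes, since Lrrn4cl then had 19.99 CPM in auranofin 1 and 22.6 CPM in WD 4. Both comparisons share the WD libraries and, with the rule, a drug group. Measured from WD, the larger of the 2 distances was that of auranofin for Ackr4, Wnt10b, Dact2 and Lrrn4cl, and that of atorvastatin for Lurap1l. Without auranofin 2, the auranofin distance of Lrrn4cl and Wnt10b was the smaller one. The order of the distances was not tested. With all libraries, the 2 distances of Lrrn4cl, and those of Dact2, differed by less than the SE of either.

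**Figure D2:**
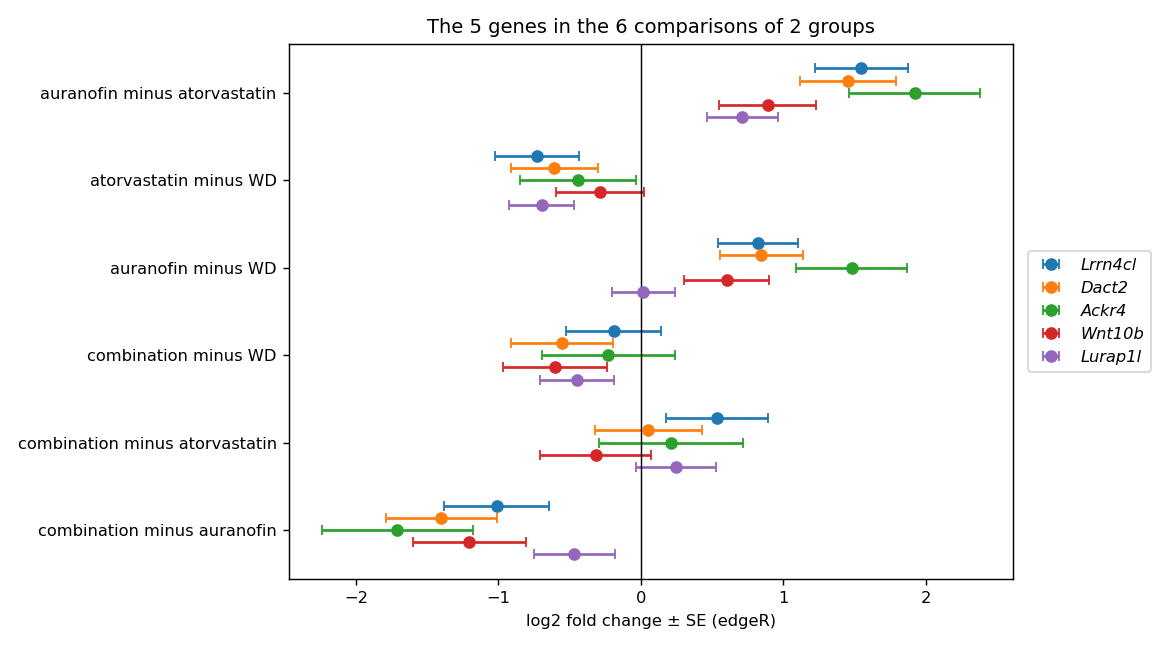
Log2 fold change of the 5 genes (points, coloured by gene, with SE as bars) in the 6 comparisons of 2 groups, from the edgeR model over all 13 libraries. All 5 genes are right of 0 for auranofin minus atorvastatin and left of 0 for atorvastatin minus WD, combination minus WD and combination minus auranofin, and Lurap1l is at 0.02 for auranofin minus WD.

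Combination minus WD holds no library of the single-drug groups, and it was tested. The rule reads levels across all 13 libraries, so the test is not fully independent of the choice. All 5 fitted values were negative and none passed the test. The log2 difference was -0.60 for Wnt10b (95% interval -1.39 to 0.19) and -0.55 for Dact2 (-1.32 to 0.21). It was -0.45 for Lurap1l (-1.01 to 0.12), -0.23 for Ackr4 (-1.24 to 0.78) and -0.19 for Lrrn4cl (-0.91 to 0.53). These values rest on which combination library is kept: with combination 2 left out they were -1.01 for Wnt10b, -0.87 for Dact2 and -0.06 for Ackr4, and with combination 1 left out -0.28, -0.29 and -0.42 for the same genes. The adjusted p in edgeR was 0.997 for each of them. At an unadjusted p under 0.05, 1.47% of all genes and 0 of the 5 members differed. Both combination libraries were below every WD library for Lurap1l and for 1.75% of genes, and with no TMM factor for 0 members and 0.642% of genes. The interval of each gene holds both 0 and its atorvastatin minus WD value. The value of Lrrn4cl changed sign to 0.034 with library totals and no TMM factor, where the median of all genes was 0.18.

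The combination was also set beside each single drug, with no test. Combination minus atorvastatin was 0.53 (SE 0.36) for Lrrn4cl, 0.25 (SE 0.28) for Lurap1l, 0.21 (SE 0.51) for Ackr4, 0.05 (SE 0.38) for Dact2 and -0.32 (SE 0.39) for Wnt10b on the log2 scale. Both combination libraries were above every atorvastatin library for Lrrn4cl and for 8.4% of all genes, and with no TMM factor for Lrrn4cl and 10.2% of genes. Combination minus auranofin was -1.71 (SE 0.53) for Ackr4, -1.40 (SE 0.39) for Dact2, -1.21 (SE 0.40) for Wnt10b, -1.01 (SE 0.37) for Lrrn4cl and -0.47 (SE 0.28) for Lurap1l. Both combination libraries were below every auranofin library for all 5 members and for 6.34% of genes, and with no TMM factor for 4 members, without Lurap1l, and 1.64% of genes. The high auranofin libraries that chose the members enter this difference, so nothing is read from it. Without auranofin 2 it was -1.30 for Dact2, -0.87 for Wnt10b, -0.79 for Ackr4, -0.62 for Lrrn4cl and -0.42 for Lurap1l.

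Across all 18055 genes, edgeR called none at an adjusted p under 0.05 in any of these 6 comparisons, so that 0% of genes and 0 of the 5 members were called in auranofin minus atorvastatin, atorvastatin minus WD, auranofin minus WD, combination minus WD, combination minus atorvastatin and combination minus auranofin. The numbers of genes at an unadjusted p under 0.05 were 795, 2648, 1173, 265, 237 and 359 in that order. DESeq2 called 5, 0, 2, 4, 5 and 3 genes in the same order, and limma called none. In DESeq2 the adjusted p of Lrrn4cl was 0.0317 in the comparison that chose it, where it is no independent evidence. For the interaction of the drugs, the auranofin difference with atorvastatin minus that without it, edgeR and limma called no gene, with 559 genes at an unadjusted p under 0.05 in edgeR, and DESeq2 called 11. The interaction uses the same drug groups as the rule and is given as a description for the members. It was -1.27 (SE 0.65) for Ackr4, -0.92 (SE 0.50) for Wnt10b, -0.79 (SE 0.48) for Dact2, -0.29 (SE 0.46) for Lrrn4cl and 0.23 (SE 0.36) for Lurap1l. Without auranofin 2 it was -0.70 for Dact2, -0.59 for Wnt10b, -0.35 for Ackr4, 0.11 for Lrrn4cl and 0.27 for Lurap1l, so that the value of Ackr4 was much smaller and that of Lrrn4cl changed sign. A model with each drug given or not, over all 13 libraries, put atorvastatin at -0.92 (SE 0.36) for Ackr4, -0.91 (SE 0.26) for Dact2, -0.84 (SE 0.23) for Lrrn4cl, -0.63 (SE 0.27) for Wnt10b and -0.60 (SE 0.17) for Lurap1l. It put auranofin at 1.03 (SE 0.34) for Ackr4, 0.71 (SE 0.22) for Lrrn4cl, 0.56 (SE 0.25) for Dact2, 0.27 (SE 0.26) for Wnt10b and 0.11 (SE 0.17) for Lurap1l. Both terms use the drug groups of the rule, so they are given as descriptions for the members. At an adjusted p under 0.05 this model called 0 genes for either term. It leaves out the interaction, so its terms need not match the differences of the single drugs from WD. With auranofin 2 left out, the auranofin term was 0.48 for Lrrn4cl, 0.45 for Dact2, 0.41 for Ackr4, 0.10 for Lurap1l and 0.02 for Wnt10b, and the atorvastatin term ran from -0.85 for Dact2 to -0.49 for Wnt10b.

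Across the 13 libraries the members ran together, which the rule in part fixes. Pearson's r of log2 CPM was 0.482 (Ackr4 and Lurap1l) to 0.849 (Lrrn4cl and Ackr4) over the 10 pairs of genes. With the group means taken out, so that only differences between libraries of 1 group remained, r was 0.733 for Lrrn4cl and Wnt10b, 0.684 for Lrrn4cl and Lurap1l, 0.683 for Ackr4 and Wnt10b and 0.643 for Lrrn4cl and Ackr4. It was 0.494 for Dact2 and Wnt10b, 0.351 for Lrrn4cl and Dact2 and 0.267 for Wnt10b and Lurap1l. The lowest values were 0.137 for Dact2 and Ackr4, 0.133 for Ackr4 and Lurap1l and -0.135 for Dact2 and Lurap1l. These points share a library and its TMM factor. Over the 12 libraries without auranofin 2, the values within groups were 0.779 for Lrrn4cl and Lurap1l, 0.538 for Lrrn4cl and Wnt10b, 0.187 for Lrrn4cl and Ackr4, 0.185 for Ackr4 and Wnt10b and -0.325 for Dact2 and Ackr4.

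The genes most like each member, out of 13129 genes compared by Pearson's r over the 13 libraries, differed between members. For Lrrn4cl they were Pi16 (r = 0.896), a marker of adventitial fibroblasts, Gimap6 (0.88), a GTPase gene of lymphocytes and endothelium, and Slc52a3 (0.871), a riboflavin transporter. For Ackr4 they were Nova1 (0.93), an RNA-binding protein, Scarf1 (0.92), a scavenger receptor of endothelium, and Parp2 (0.919), a DNA repair enzyme. Nova1 (0.863) and Parp2 (0.871) were also among the 3 nearest Wnt10b, after Nkx2-3 (0.878), a homeobox factor of spleen and gut endothelium. Lurap1l went with Socs2 (0.939), an inhibitor of cytokine signalling, Dpep1 (0.908), a dipeptidase, and Ccdc17 (0.907). Dact2 went with the zinc finger genes Zfp617 (0.853) and Zfp157 (0.801) and with Tceanc (0.812). Only Ackr4 and Wnt10b shared any of their 3 genes with another member. Without auranofin 2 the r of Ackr4 with its 3 genes was 0.572 to 0.677, while that of Lurap1l with Socs2 was 0.959. Ranked by Spearman's rho instead, the 3 nearest genes shared 1 with these for Dact2, 1 for Lurap1l and 0 for each of the other 3 members.

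The Wnt pathway genes around Wnt10b and Dact2 were mostly on the other side of the fit. In auranofin minus atorvastatin, 1 of 14 Wnt receptor genes tested had a positive fitted value and 13 a negative one, with a median of -0.53, against 0.00068 for all genes. Of the genes for secretion and transduction, 2 of 16 were positive (median -0.22), of the inhibitors 4 of 14 (median -0.44), of the other ligands 3 of 10 tested out of 18 (median -0.08), and of the target genes 2 of 6 tested out of 10 (median -0.32). None of these genes passed the test in any comparison. In the Wnt lists these medians stayed below that of all genes under library totals with no TMM factor. Without auranofin 2 they were -0.29 for receptors, -0.11 for secretion and transduction, -0.23 for inhibitors, 0.03 for the other ligands and -0.04 for targets.

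Among the ligands, the 2 with the smallest p were Wnt16, at 17.3 ± 10.5 CPM with auranofin and 31.6 ± 6.39 with atorvastatin (log2 difference -0.86, SE 0.39), and Wnt11, at 2.70 ± 0.716 and 1.67 ± 0.668 CPM in the same groups (0.68, SE 0.38; SD, n = 3 each). Wnt10a, the closest relative of Wnt10b, had at most 11 counts in a library and was not tested. Among the receptors, Ror1, a receptor for non-canonical Wnt ligands, was at 24.3 ± 13.7 CPM with auranofin and 50.4 ± 12.5 with atorvastatin (-1.05, SE 0.41), and Lrp5, a co-receptor of the canonical pathway, at 41.6 ± 10.7 and 79.2 ± 12.4 (-0.93, SE 0.39). Of the transduction genes, Axin1, the scaffold of the complex that degrades beta-catenin, was at 20.7 ± 3.93 CPM with auranofin and 30.7 ± 3.76 with atorvastatin (-0.57, SE 0.19), and Dvl3, a Dishevelled, differed by -0.56 (SE 0.30). Apart from Wnt11, these genes were lower with auranofin in the fit, and none passed the test. Leaving out auranofin 2, the differences were -0.49 for Wnt16, 0.50 for Wnt11, -0.68 for Ror1, -0.78 for Lrp5, -0.43 for Axin1 and -0.38 for Dvl3.

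Of the inhibitors, Kremen1, which removes LRP co-receptors, was at 19 ± 6.23 CPM with auranofin and 32.3 ± 2.67 with atorvastatin (-0.76, SE 0.30; SD, n = 3 each). Dkk1, its secreted partner, had at most 28 counts in a library and differed by -1.87 (SE 0.82). The paralogs of Dact2 were not parallel to it: Dact1 differed by -0.10 at 9.25 ± 3.02 CPM with auranofin and 9.94 ± 0.61 with atorvastatin, and Dact3 by -0.79 at 47.6 ± 28.0 and 82.5 ± 16.5 CPM. The target genes with positive values were Tcf7 at 1.75 (SE 0.69) and Lef1 at 1.5 (SE 0.74). Both are also transcription factors of T cells, and the 7 T cell markers had a median of 1.82 in the same comparison. Their part in the values of Tcf7 and Lef1 was not tested. Leaving out auranofin 2, the values were -0.54 for Kremen1, -1.59 for Dkk1, -0.14 for Dact1, -0.41 for Dact3, 1.55 for Tcf7 and 1.28 for Lef1, and the T cell median was 0.93.

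The genes around Ackr4 were mostly positive in the fit, with smaller medians without auranofin 2. The other atypical receptors had a median of 0.73 in auranofin minus atorvastatin, with 3 of 4 positive, and none passed the test. Ackr2, which clears inflammatory chemokines, was at 4.29 ± 1.71 CPM with auranofin and 2.25 ± 0.406 with atorvastatin (0.92, SE 0.38; SD, n = 3 each). Ackr3, a scavenger of CXCL12, differed by 0.57 (SE 0.31) and Ackr1, the Duffy antigen of venules, by 0.89. Of the ligands of Ackr4 and their signalling receptors, 5 of 5 were positive, with a median of 0.81, and none passed the test. Ccl21a was at 31.5 ± 21.2 CPM with auranofin and 13.4 ± 8.98 with atorvastatin (1.23, SE 0.62), Ccl25 at 2.38 ± 0.895 and 1.73 ± 0.324 (0.45) and Ccl19 at 11.7 ± 4.15 and 10.2 ± 2.24 (0.20). Ccr9, the receptor of CCL25, ran from 0.0745 to 3.25 CPM within the auranofin group alone (2.42, SE 1.11). With library totals and no TMM factor 4 of these 5 were positive, with a median of 0.43, against -0.27 for all genes. When auranofin 2 was left out, the median was 0.13 for the atypical receptors and 0.23 for the ligands and their receptors, where 4 of 5 were positive. The single differences were then 0.55 for Ackr2, 0.14 for Ackr3, 0.12 for Ackr1, 0.56 for Ccl21a, 0.23 for Ccl25, -0.13 for Ccl19 and 2.44 for Ccr9.

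The relatives and partners of Lrrn4cl and Lurap1l were on the other side. All 8 had negative fitted values in auranofin minus atorvastatin, with a median of -0.74, and none passed the test. Lrrn1 was at 1.6 ± 0.453 CPM with auranofin and 3.42 ± 0.563 with atorvastatin (-1.08, SE 0.45), and Lrrn2 differed by -0.69 (SE 0.39). Lrrn4, the namesake of Lrrn4cl and a gene of mesothelium, was at 0.776 ± 0.573 CPM with auranofin and 1.43 ± 2.08 with atorvastatin (-0.89), and Lurap1 at 10.8 ± 1.74 and 14 ± 1.72 CPM (-0.36; SD, n = 3 each). Among adipogenic factors, which bear on the known action of Wnt10b, 5 of 8 were positive with a median of 0.20, and 4 of 8 with a median of -0.08 under library totals with no TMM factor. The median of all genes was -0.27 on that scale. Taken minus the median of all genes, the adipogenic list was at 0.196 with TMM and 0.181 without it. Pparg, the master factor of fat cells, differed by 0.45 (SE 0.44) and Zfp423, a factor of fat cell precursors, by -0.42 (SE 0.25), and none of the 8 passed the test. Without auranofin 2 all 8 relatives and partners were negative, with a median of -0.51, and the adipogenic median was 0.05. The differences were then -0.91 for Lrrn1, -0.51 for Lrrn2, -0.95 for Lrrn4, -0.28 for Lurap1, 0.19 for Pparg and -0.47 for Zfp423.

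**Figure D3:**
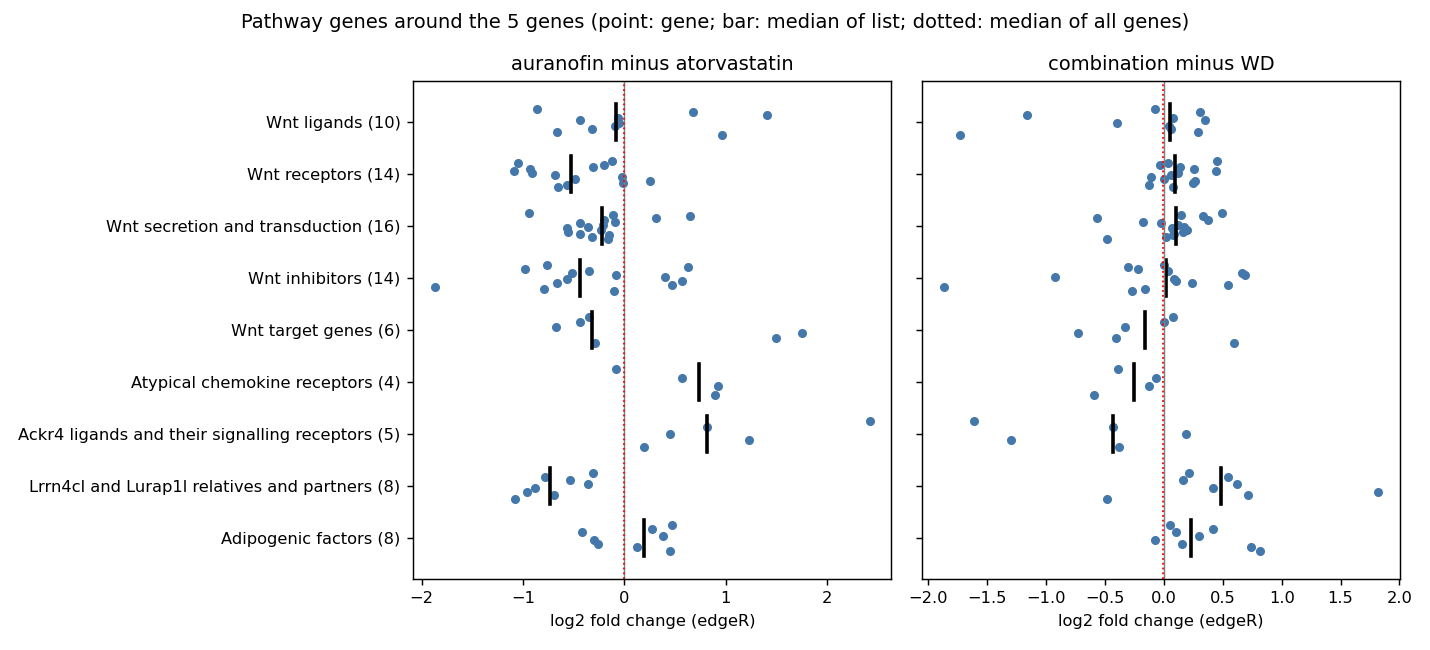
Log2 fold change from edgeR (horizontal axes) of each tested gene (points) of 9 pathway lists around the 5 genes, for auranofin minus atorvastatin (left) and combination minus WD (right), with the list median as a bar and the median of all genes dotted. On the left, the Wnt receptors (median -0.53) and the relatives and partners of Lrrn4cl and Lurap1l (median -0.74) lie mostly below 0, and the ligands of Ackr4 and their receptors (median 0.81) above it.

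In combination minus WD the same lists had medians of 0.05 for Wnt ligands, 0.10 for Wnt receptors, 0.10 for secretion and transduction, 0.02 for Wnt inhibitors and -0.16 for Wnt targets, against -0.0082 for all genes. The medians were -0.26 for atypical chemokine receptors, -0.43 for the Ackr4 ligands and their receptors, 0.48 for the relatives and partners and 0.23 for adipogenic factors. No gene of these lists passed the test there.

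The name stromal was checked against 14 markers of adventitial fibroblasts, the connective tissue cells of the outer vessel wall. All 14 were tested, and their summed level was 4629 to 5460 CPM in the combination, 4297 to 5699 CPM with auranofin, 3909 to 5223 CPM with atorvastatin and 4118 to 6009 CPM in WD, so the groups overlapped. In auranofin minus atorvastatin 10 of 14 were positive with a median of 0.24, and 6 of 14 with a median of -0.06 under library totals with no TMM factor. Without auranofin 2 10 of 14 were positive with a median of 0.14. In atorvastatin minus WD 10 of 14 were negative with a median of -0.30, and 8 of 14 with a median of -0.13 under no TMM factor. With no TMM factor the median of all genes itself was -0.27 in auranofin minus atorvastatin and 0.16 in atorvastatin minus WD. Taken minus the median of all genes, the list was at 0.235 with TMM and 0.206 without it in the first comparison. In the second it was at -0.292 and -0.293, so the list moved little relative to all genes. None passed the test in either comparison. Pi16, a marker of a progenitor-like adventitial fibroblast and the gene most like Lrrn4cl, was at 214 ± 5.54 CPM in the combination (SD, n = 2), 337 ± 154 with auranofin (SD, n = 3), 169 ± 31.9 with atorvastatin (SD, n = 3) and 274 ± 49.1 in WD (SD, n = 5). Its auranofin minus atorvastatin difference was 1.00 (SE 0.31), and that of Cd34, a marker of fibroblasts and endothelium, was 0.65 (SE 0.28). Without auranofin 2 these were 0.56 and 0.31. The matrix genes Lum at -0.76 and Col14a1 at -0.23 were negative in auranofin minus atorvastatin; these 2 were named after their values were seen. Whole aorta does not show which cells the RNA of the 5 genes came from, so they are called stromal here by the name of the selection only.

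Markers of other cells differed between the single drugs as well. In auranofin minus atorvastatin all 7 T cell markers (median 1.82), all 4 B cell markers (2.03), all 8 brown adipocyte markers (1.28), all 7 lymphatic endothelial markers (0.71), 6 of 7 white adipocyte markers (0.94), 7 of 9 blood endothelial markers (0.77) and all 8 macrophage markers (0.56) were positive, and none passed the test. Summed B cell markers ran from 22.1 to 662 CPM with auranofin and from 27.2 to 48.7 CPM with atorvastatin. Summed blood endothelial markers ran from 845 to 2603 CPM with auranofin and from 806 to 957 CPM with atorvastatin, and the 10 contractile smooth muscle markers from 6404 to 17090 and from 14590 to 20240 CPM. The highest B cell, endothelial and brown adipocyte sums and the lowest smooth muscle sum were in auranofin 2, the library where Lrrn4cl, Ackr4 and Wnt10b peaked. Among single markers, Ighm of B cells differed by 2.92 (SE 0.96), Cd79a by 2.25 (SE 1.05), Lck of T cells by 1.91 (SE 0.71), Lyve1 of lymphatic endothelium by 0.99 (SE 0.38) and Pecam1 of endothelium by 1.03 (SE 0.41). Leaving out auranofin 2, these differences were 0.145 for Ighm, 0.16 for Cd79a, 1.48 for Lck, 0.89 for Lyve1 and 0.27 for Pecam1. Without auranofin 2 the medians were 0.93 for T cells, 0.74 for white adipocytes, 0.55 for brown adipocytes, 0.27 for lymphatic endothelium, 0.15 for B cells, 0.06 for macrophages and -0.01 for blood endothelium. The 5 members were then at 0.56 to 1.36 in the same comparison. That comparison chose them, so nothing is read from their values beside these medians. The part of these cells in the levels of the members was not tested.

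**Figure D4:**
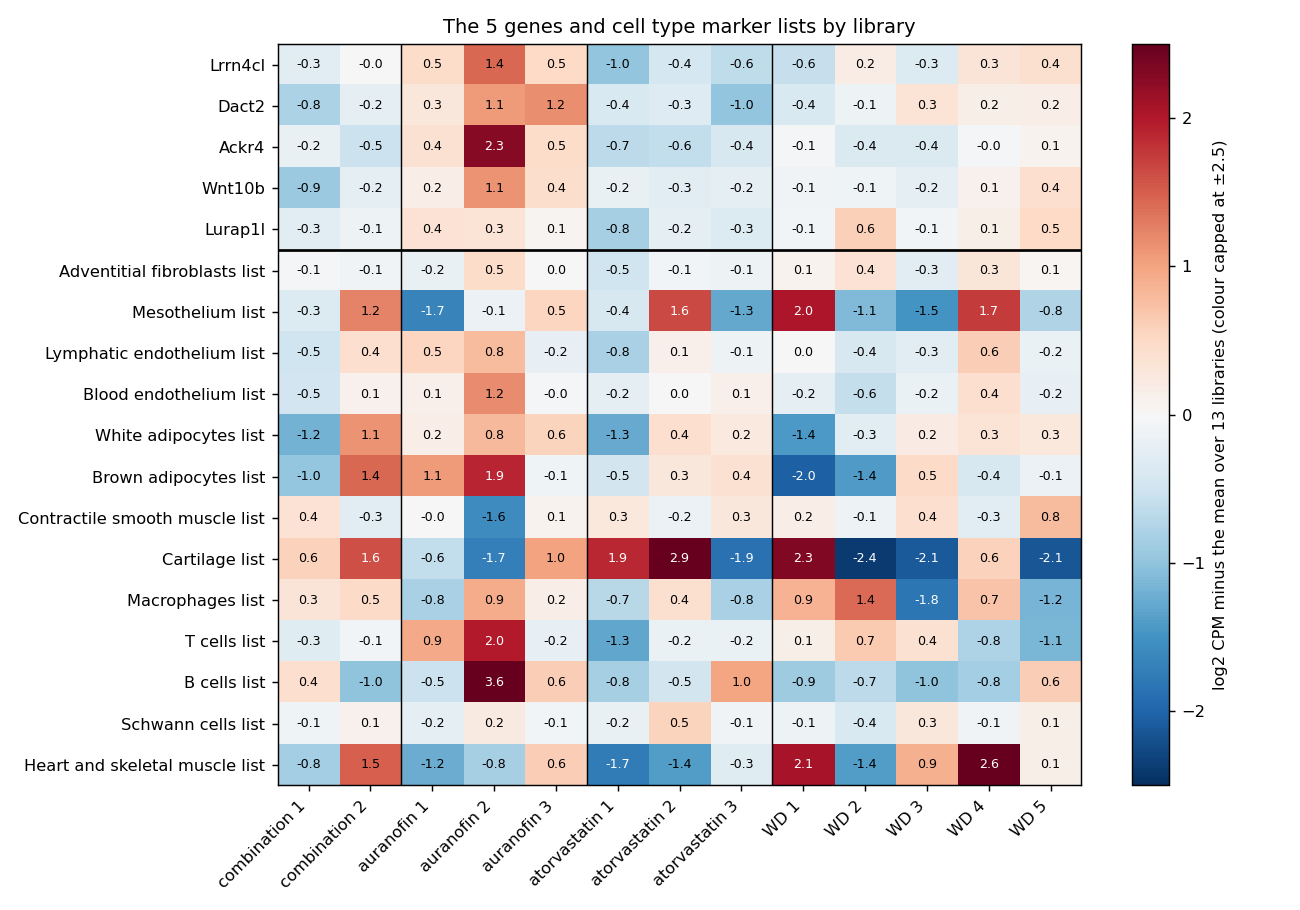
Log2 CPM of the 5 genes (top rows) and mean log2 CPM of 13 cell type marker lists (lower rows), each minus its own mean over the 13 libraries (columns, by group), printed in each cell and coloured with a cap at 2.5 either way. The highest cell is Ackr4 in auranofin 2 among the genes and B cells in auranofin 2 among the lists, and the fibroblast row is pale throughout.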

How the data were processed

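Per the submitters' processing notes, reads of non-stranded poly-A libraries were handled with STAR 2.6.1d, build GRCm39 and featureCounts of Subread 1.6.3, and the authors deposited whole-number raw counts per gene for 13 libraries, used as deposited. Genes were filtered with filterByExpr, scaled with TMM and fitted with edgeR 4.0.16 (quasi-likelihood, 1 mean per group, two-sided) in R 4.3.3, and p-values were adjusted by Benjamini-Hochberg over 18055 genes with a threshold of 0.05. The closest pair of libraries differed by a chi-square of 17.1 per degree of freedom, so each was counted as 1 sample. The 5 genes, the 23 gene lists (209 genes, 190 tested) and the rule for named genes were chosen with earlier results of these data known. That rule took the 5 members, every list gene past the threshold, else the 2 of each list with the smallest p in auranofin minus atorvastatin, fixed relatives of the members, and the 3 genes most like each member of log2 CPM averaging 0 or more. Relatives, overlaps and exon lengths came from GENCODE M21 on GRCm38 and promoters from RefSeq GRCm38.p6, not the build of the counts, and no position from them was tied to a read. The scripts were tested on simulated data. DESeq2 1.42.0, limma 3.58.1, other filters and scalings, the replicate number as block, and leaving out each library were alternatives, and no TMM factor, the 3 libraries with factors under 0.9 left out, and the lists and correlations without auranofin 2 were added after seeing the data. Figures used matplotlib 3.10.9.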

Additional observations from a re-analysis of the deposited data

How the results depend on the processing

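Of 775 recomputed values of the 5 genes, 759 kept their direction. Outside combination minus WD, 23 moved by over 1 SD of the libraries within groups. In combination minus WD the values were judged by direction and test threshold only, so shifts in size there are not in that number. Lrrn4cl in combination minus WD, -0.19 in edgeR, became 0.088 in limma, 0.050 with the replicate block, 0.034 with no TMM factor and 0.025 without the 3 libraries with a TMM factor under 0.9; the cause was not tested. Lurap1l in auranofin minus WD ran from -0.06 to 0.24. Without auranofin 2, Ackr4 moved to 1.00 in auranofin minus atorvastatin and 0.56 in auranofin minus WD, and its interaction to -0.35. The count of genes called, 0 in edgeR, became with no low-count filter 2 (atorvastatin minus WD), 13 (auranofin minus WD), 9 (combination minus WD) and 3 (combination minus atorvastatin). In DESeq2 it was 5 (auranofin minus atorvastatin), 2 (auranofin minus WD), 4 (combination minus WD), 5 (combination minus atorvastatin), 3 (combination minus auranofin) and 11 (interaction). Leaving out 1 library gave 0 to 10 for combination minus WD, 0 to 8 for combination minus atorvastatin, 0 to 8 for combination minus auranofin and 0 to 2 for the interaction. The upper value in each case came without combination 1, where the lone combination 2 is assumed to vary like the other groups. The labels do not say whether replicate numbers pair the libraries, and no pairing was seen. Deviations of same-numbered libraries from their group means correlated at -0.309 to 0.433, with 5 of 15 pairs over 0.1, against 16 of 46 pairs with other numbers. These correlations cannot exclude a pairing, since the deviations of the 2 combination libraries mirror each other by construction. Under the replicate block no gene was called. With 25 to 67 counts a library for Wnt10b and 2 combination libraries, depth and group size limit what could be detected.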

Other observations

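Other tissues of the vessel and its surroundings varied across the libraries as well. In auranofin minus atorvastatin all 6 cartilage markers had negative fitted values (median -1.59), led by Acan, the proteoglycan of cartilage, at -1.69 (SE 0.82), and 8 of 9 mesothelial markers were negative (median -0.73). Summed cartilage markers ran from 39.6 to 253 CPM with auranofin and from 61.8 to 1144 CPM with atorvastatin, so the groups overlapped. Schwann cell markers had a median of -0.14, with 5 of 6 negative. Heart and skeletal muscle markers had a median of 1.08, with 5 of 8 positive, and summed to 13.1 to 97.8 CPM with auranofin and 10.8 to 22.8 CPM with atorvastatin. Of 7 thymus markers 2 were tested, Rag1 and Dntt, genes of developing lymphocytes. Their summed level was 9.26 CPM in auranofin 1 and 6.78 CPM in WD 3, and both were at 0 in at least 1 library of every group. Without auranofin 2 the medians were -1.27 for cartilage, -1.03 for mesothelium, -0.15 for Schwann cells and 1.24 for heart and skeletal muscle. Acan was then at -1.24. No gene of these lists passed the test.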
